A study of Mus musculus with 4 samples.

Results

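The genes that make, break down and sense prostaglandin E2 were followed in mouse colon with and without dextran sulfate sodium (DSS) colitis, in mice lacking Pla2g10 and in wildtype mice. The 10 members were fixed by name: the cyclooxygenases Ptgs1 and Ptgs2, the prostaglandin E synthases Ptges, Ptges2 and Ptges3, the degrading enzyme Hpgd, and the receptors Ptger1, Ptger2, Ptger3 and Ptger4. They are 10 of the 30199 gene names on the array and were carried by 16 probes in 25 spots, out of 39429 probes in 43020 spots per array, and every probe of each gene was used. All 16 probes were well above background on all 4 arrays.

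The study compared colons of C57BL/6 mice in 4 groups. The X-KO DSS and WT DSS groups were Pla2g10 knockout (-/-) and wildtype mice given 1% (w/v) DSS, a polymer that injures the colon lining, in the drinking water and taken on day 7. The X-KO naive and WT naive groups were the same genotypes without DSS. Pla2g10 encodes group X secreted phospholipase A2. The mice were housed at 8 weeks of age, and the labels give 9 weeks under the sex tag and male under the age tag, which are taken here as swapped. Each group was 1 single-colour array, hybridized with RNA pooled over 3 colons, so a difference between 2 groups has no replicate check and carries no p-value. The sources used here do not say how the knockout was made. The arrays shared 1 slide and 1 scan date, but array position and group cannot be told apart.

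Signals are given relative to the 75th percentile of each array, which has the value 1. Probes differ in how brightly they bind, so levels are compared between arrays for 1 probe and not between genes. In whole colon, fewer cells of a type and less RNA per cell cannot be told apart. Pla2g10 itself had a relative signal of 0.993 in X-KO DSS against 19.0 in WT DSS, and 1.69 in X-KO naive against 15.8 in WT naive, in the direction of the labels (the sources used here do not say if its probe lies in the deleted part). The 10 colon epithelium markers, which included Cdx1, Cdx2, Vil1, Car1 and Muc2, were well above background on all 4 arrays. Between 67.7% and 70.4% of the spots on an array were well above background. For probes printed more than once, the median SD over spots (log2) was 0.0574 to 0.0634 per array, or 0.0847 for a ratio of 2 arrays. It measures spot noise, and leaves the spread between animals unknown.

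Prostaglandin E2 is made from arachidonic acid in sequence: phospholipases A2 release the fatty acid, cyclooxygenases turn it into prostaglandin H2, and a terminal synthase makes prostaglandin E2. The product is inactivated inside cells by 15-hydroxyprostaglandin dehydrogenase, the protein of Hpgd, and acts outside them on the receptors EP1 to EP4, the proteins of Ptger1 to Ptger4. In the colon it is known for protecting the epithelium after injury, for acting on immune cells and for promoting tumours where Hpgd is lost.

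Ptgs2, the inducible cyclooxygenase COX-2, showed the highest ratios among the 16 probes in all 4 comparisons. Its probe A_51_P254855, at chr1:151954744-151954803 on the plus strand of mm9, was printed 10 times on each array, so that its signal rests on more spots than that of any other member. Bases 31 to 60 of the probe are shown because this sequence carries the main result.
Ptgs2: ctgttggaatttacgcataaagcagactgc

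Over the 8 spots kept in X-KO DSS, Ptgs2 had a lowest relative signal of 0.949, a median of 0.976 and a highest of 1.01. Over the 9 spots kept in WT DSS, the lowest was 0.360, the median 0.371 and the highest 0.390. The 8 spots kept in X-KO naive ranged from 0.143 to 0.167 with a median of 0.157, and those of WT naive from 0.108 to 0.121 with a median of 0.116. The spots of the 4 arrays did not overlap, with X-KO DSS highest and WT naive lowest. Spots marked as outliers by the scanner software were left out, and keeping them left the order of the arrays in place (X-KO DSS 0.889 to 1.01, WT DSS 0.319 to 0.390, X-KO naive 0.143 to 0.167, WT naive 0.0962 to 0.121, over all 10 spots).

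**Figure D1:**
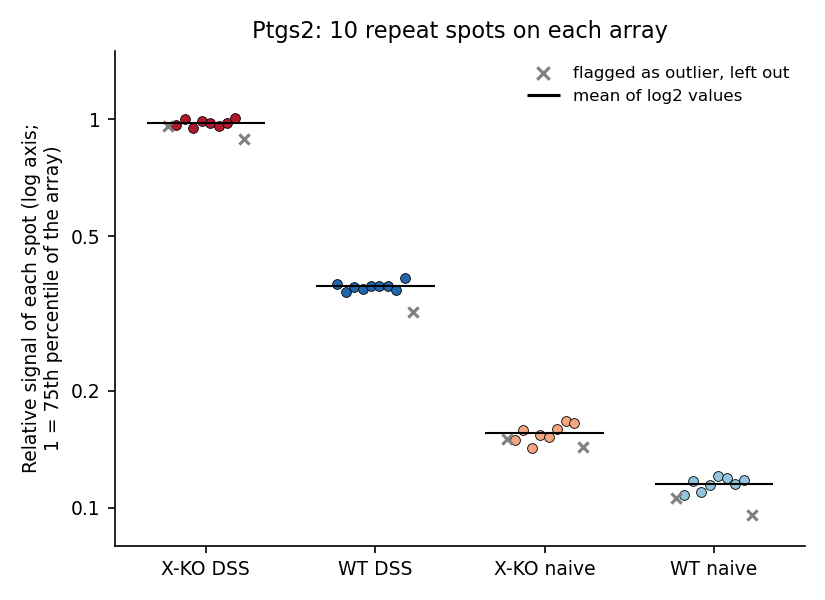
Relative signal of Ptgs2 (log axis, 1 equals the 75th percentile of the array) in each of its 10 repeat spots on the 4 arrays; each array is RNA pooled from 3 mice. Points are single spots, crosses are spots marked as outliers and left out, and bars are means of log2 values. X-KO DSS lies near 0.977, WT DSS near 0.371, X-KO naive near 0.156 and WT naive near 0.115. The spread over spots of the same array is spot noise and not spread between animals.

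Ptgs2 was thus 6.26-fold higher in X-KO DSS than in X-KO naive (log2 ratio 2.65), and 3.22-fold higher in WT DSS than in WT naive (log2 ratio 1.69). Of all probes kept, 1.49% had a higher ratio than Ptgs2 in X-KO and 2.21% in WT. The genotypes differed as well: Ptgs2 was 2.63-fold higher in X-KO DSS than in WT DSS, and 1.35-fold higher in X-KO naive than in WT naive (log2 ratios 1.40 and 0.44). In the same naive comparison the neutrophil genes S100a9 and S100a8 were 4.25-fold and at least 3.06-fold higher in X-KO and Il1b was 2.06-fold higher. Of the other neutrophil markers, Csf3r and Ly6g were 1.21-fold and 1.08-fold higher. Cxcr2 and Mmp9 were not well above background on either naive array. The part of neutrophils in the Ptgs2 value was not tested. The log2 ratio of DSS over naive was larger in X-KO by 0.96, a difference for which no test was possible with 1 array per group.

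Ptgs1, the constitutive cyclooxygenase COX-1 (probe at chr2:36107644-36107703, mm9), moved the other way from its relative. It had a relative signal of 2.50 in X-KO DSS against 2.88 in X-KO naive, and of 2.04 in WT DSS against 3.16 in WT naive. Both DSS arrays lay below both naive arrays, and WT DSS was lowest. The log2 ratios of DSS over naive were -0.21 in X-KO and -0.63 in WT, and those of X-KO over WT were 0.29 with DSS and -0.13 in naive colon.

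Ptges encodes microsomal prostaglandin E synthase-1, the terminal enzyme that is known to be induced together with COX-2. It was measured by 2 probes whose values disagreed. The bright probe A_55_P1974193 lies at chr2:30744995-30745054 and the dim probe A_55_P1974189 at chr2:30748214-30748273, both on the minus strand of mm9, so that their starts are 3219 bases apart and the dim probe lies nearer the 5′ end of the gene. Bases 31 to 60 of each are shown because the result for Ptges depends on the probe, with the polyadenylation hexamer ATTAAA in capitals.
Ptges, bright probe: agtcagccccaATTAAAtgctttcctttat
Ptges, dim probe: gttgtcctcacaggccgtgtggtacacacc
The hexamers AATAAA and ATTAAA, which mark the end of many transcripts, were searched on the probe strand and occur in 3 of the 16 member probes and in 16.7% of all probes on the array.

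The bright probe of Ptges had relative signals of 16.1 in X-KO DSS, 16.1 in WT DSS, 15.4 in X-KO naive and 13.8 in WT naive. The arrays lay close together, with log2 ratios of DSS over naive of 0.06 in X-KO and 0.23 in WT. The dim probe had 0.203 in X-KO DSS, 0.0963 in WT DSS, 0.061 in X-KO naive and 0.0581 in WT naive. On this probe both DSS arrays were above both naive arrays: the signal was 3.32-fold higher in X-KO DSS than in X-KO naive and 1.66-fold higher in WT DSS than in WT naive. It was also 2.10-fold higher in X-KO DSS than in WT DSS, against 1.05-fold in naive colon, and its log2 ratio of DSS over naive was larger in X-KO by 1.00. The log2 ratios of the 2 probes in X-KO DSS over X-KO naive were 1.67 apart, more than for any other member with several probes. Which transcripts each probe reads was not tested.

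The other terminal synthases showed smaller differences. Ptges2, the membrane-associated prostaglandin E synthase-2 (probe at chr2:32257968-32258027, mm9), had a relative signal of 2.10 in X-KO DSS against 2.32 in X-KO naive, and of 2.83 in WT DSS against 2.39 in WT naive. It was therefore lower with DSS in X-KO (log2 ratio -0.14) and higher in WT (0.24), and 1.35-fold lower in X-KO DSS than in WT DSS. Ptges3, the cytosolic synthase that is also the HSP90 co-chaperone p23, was read by 4 probes on chromosome 10. Their log2 ratios of DSS over naive ran from -0.01 to 0.55 in X-KO and from 0.22 to 0.46 in WT. The brightest, at chr10:127513950-127514009 (mm9), had relative signals of 12.5 in X-KO DSS, 12.9 in WT DSS, 9.80 in X-KO naive and 9.33 in WT naive. Both DSS arrays were above both naive arrays on this probe. The second probe (chr10:127513440-127513499) had 4.04 in X-KO DSS, 3.74 in WT DSS, 2.94 in X-KO naive and 3.18 in WT naive. The third (chr10:127514251-127514310) had 3.32, 3.50, 3.35 and 2.99 in the same order of arrays, and the fourth (chr10:127513224-127513297) had 2.36, 2.13, 1.62 and 1.82. All 4 probes were higher in WT DSS than in WT naive, and 3 of 4 were higher in X-KO DSS than in X-KO naive. The exception was the third probe, whose log2 ratio of -0.01 lies within the spot noise and was up to 0.06 under other scalings. For 2 of the 4 the files also list predicted transcripts, so that their signal is less certain to come from Ptges3 alone. Between the genotypes the 4 probes stayed between -0.17 and 0.16 on the log2 scale in naive colon and between -0.08 and 0.15 with DSS.

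**Figure D2:**
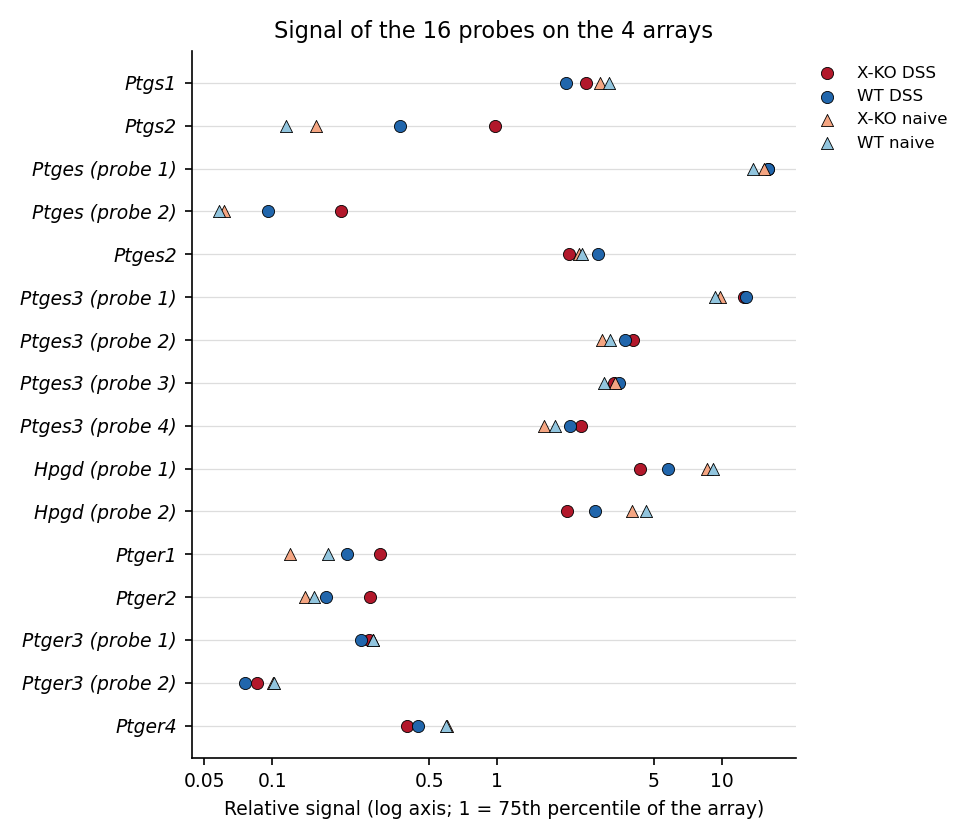
Relative signal (log axis, 1 equals the 75th percentile of the array) of the 16 probes of the 10 genes on the 4 arrays, each 1 pool of 3 mice; probes of 1 gene are numbered from the brightest. Ptgs2 and the second Ptges probe spread widest towards X-KO DSS, and both Hpgd probes have their lowest value there (4.33 and 2.05).

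Hpgd, which inactivates prostaglandin E2, was lower with DSS in both genotypes and on both of its probes. Probe A_51_P458778 lies at chr8:58799399-58799458 and probe A_55_P2035424 at chr8:58798941-58799000, both on the plus strand of mm9. A run of 30 bases of each (29 to 58 of the first, 31 to 60 of the second) is shown because the probes lie 458 bases apart, do not overlap and gave like ratios, with the hexamer AATAAA in capitals.
Hpgd, first probe: AATAAAagcttgtccgggacctgcaagcga
Hpgd, second probe: cattactcgtaaaagctccattaacctcct

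The first Hpgd probe had a relative signal of 4.33 in X-KO DSS against 8.66 in X-KO naive, and of 5.79 in WT DSS against 9.18 in WT naive. The second had 2.05 in X-KO DSS against 4.00 in X-KO naive, and 2.72 in WT DSS against 4.62 in WT naive. X-KO DSS was lowest on both probes and WT naive highest. The log2 ratios of DSS over naive were -0.9997 and -0.96 in X-KO and -0.67 and -0.76 in WT. Both probes were lower in X-KO DSS than in WT DSS, with log2 ratios of -0.42 and -0.41, and closer in naive colon (-0.08 and -0.21). A ratio below that of the first probe in X-KO was seen for 7.14% of all probes. The first probe lay just short of the 2-fold threshold in X-KO and is not in the counts of 2-fold differences.

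Among the receptors, Ptger1 and Ptger2 were higher with DSS and Ptger4 was lower. Ptger1, whose protein EP1 raises intracellular calcium (probe at chr8:86193943-86194002, mm9), had a relative signal of 0.301 in X-KO DSS against 0.120 in X-KO naive, and of 0.215 in WT DSS against 0.177 in WT naive. It was 2.50-fold higher with DSS in X-KO and 1.22-fold higher in WT, and the log2 ratios differed by 1.04. X-KO naive was the lowest array and X-KO DSS the highest, so that X-KO stood below WT in naive colon (log2 ratio -0.55) and above it with DSS (0.48). Ptger2, whose protein EP2 raises cyclic AMP (probe at chr14:45622004-45622063, mm9), had 0.272 in X-KO DSS against 0.140 in X-KO naive, and 0.175 in WT DSS against 0.154 in WT naive. The folds were 1.95 in X-KO, just short of the threshold, and 1.14 in WT, and Ptger2 was 1.56-fold higher in X-KO DSS than in WT DSS.

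Ptger4, whose protein EP4 also raises cyclic AMP (probe at chr15:5184419-5184478, mm9), had a relative signal of 0.399 in X-KO DSS against 0.601 in X-KO naive, and of 0.444 in WT DSS against 0.591 in WT naive. It was lower with DSS in both genotypes, 1.51-fold in X-KO and 1.33-fold in WT, and the naive arrays differed by 1.02-fold. Ptger3 encodes EP3, which lowers cyclic AMP, and its 2 probes (chr3:157307508-157307567 and chr3:157268044-157268103, mm9) had the smallest range among the receptors. The brighter probe had 0.270 in X-KO DSS, 0.248 in WT DSS, 0.281 in X-KO naive and 0.282 in WT naive. The dimmer probe had 0.0856, 0.0759, 0.101 and 0.102 in the same order of arrays, and both probes were lowest in WT DSS. Their log2 ratios of DSS over naive were -0.06 and -0.24 in X-KO and -0.18 and -0.43 in WT. The first of these lies within the spot noise of 0.0847 and was 0.01 with median scaling, so that no direction with DSS is given for the brighter probe in X-KO. EP2 and EP4 are known to signal through the same second messenger, and their genes stood on opposite sides: with DSS, Ptger2 had log2 ratios of 0.96 in X-KO and 0.18 in WT, and Ptger4 of -0.59 and -0.41.

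**Figure D3:**
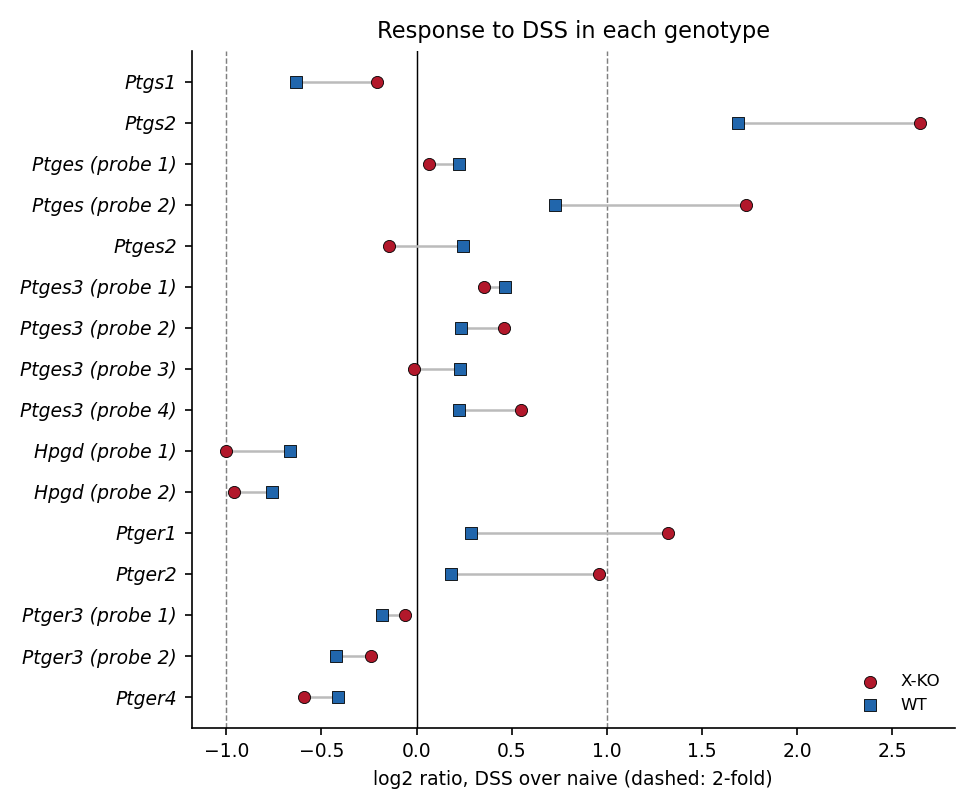
Log2 ratio of DSS over naive signal for each of the 16 probes, in X-KO (circles) and WT (squares), with 1 array per group and no error bar for lack of replicates; dashed lines mark 2-fold. Ptgs2 lies farthest right in both genotypes (2.65 and 1.69), the second Ptges probe, Ptger1 and Ptger2 lie farther right in X-KO than in WT, and Hpgd, Ptger4 and Ptgs1 lie left of 0 in both.

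Counted at 2-fold, 3 of the 16 probes were higher in X-KO DSS than in X-KO naive (18.8%: Ptgs2, the dim Ptges probe and Ptger1), where 5.26% of all 28719 probes kept were, and 0 were lower, where 5.25% were. In WT, 1 of 16 was higher with DSS (6.25%, Ptgs2), where 3.12% of all probes were, and 0 were lower, where 5.49% were. Between the genotypes with DSS, 2 of 16 were higher in X-KO (12.5%, Ptgs2 and the dim Ptges probe), where 4.81% of all probes were, and 0 were lower, where 2.08% were. The Ptges probe fell short of 2-fold with median scaling (log2 ratio 0.98), quantile normalization (0.95) and normexp (0.78), which left 1 of 16. In naive colon 0 were higher in X-KO and 0 lower, where 1.12% and 1.04% of all probes were. With this few members, shares of 1 to 3 probes are a description and do not set the group apart. The median log2 ratio of the 16 probes was 0.03 in X-KO and 0.22 in WT for DSS over naive, beside -0.13 and -0.03 for all probes. For X-KO over WT it was 0.12 with DSS and -0.03 in naive colon, beside -0.08 and 0.02 for all probes.

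Each treatment and each genotype is present on 2 arrays. The mean effects of DSS and genotype could therefore be tested with an additive limma fit over all 28719 probes, with 1 residual degree of freedom. The residual of a probe comes only from the difference of its DSS response between the genotypes. The SE and p-values of this fit thus do not measure the spread between animals. By limma with Benjamini-Hochberg adjustment, 0 probes passed for DSS over the whole array (0.0%) and 0 of the 16. Without adjustment 4 of the 16 member probes had p below 0.05: Ptgs2, both Hpgd probes and the dim Ptges probe. Of all 28719 probes, 5521 had such a p, so the member count is a description only. Ptgs2 had a mean log2 effect of DSS of 2.17 ± 0.31 (SE, adjusted p = 0.204), and the Hpgd probes had -0.83 ± 0.18 (adjusted p = 0.216) and -0.86 ± 0.16 (adjusted p = 0.21). Over all 16 probes the adjusted p for DSS ran from 0.204 to 0.89, the highest for Ptges2. With limma's trend and robust options, 3 of the 16 probes passed for DSS. They were Ptgs2 as the 1 that rose (adjusted p = 0.0227), where 2.32% of all probes rose, and both Hpgd probes as the 2 that fell (adjusted p = 0.0399 and 0.0272), where 3.5% of all probes fell. In a fit of the 24946 probes that were measured on every array, 1 of the 16 rose, Ptgs2 (adjusted p = 0.0258), where 2.0% did, and 0 fell, where 3.46% did. For the genotype effect 0 of 16 passed in each of these 3 fits, with adjusted p of at least 0.831, where 0.0% of all probes passed. For that effect 0 of the 16 had an unadjusted p below 0.05 in the first fit, where 1080 of all 28719 probes had. With trend and robust 1 of the 16 had, beside 1263 of all 28719. In the fit of probes measured on every array 1 had, beside 1258 of all 24946.

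**Figure D4:**
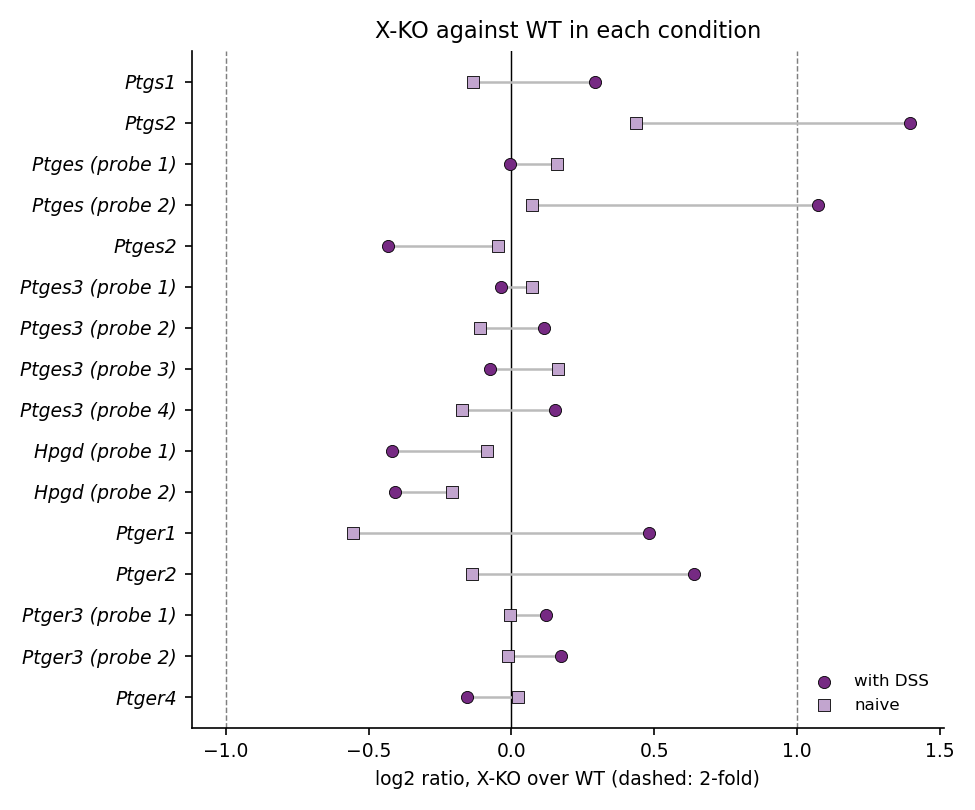
Log2 ratio of X-KO over WT signal for each of the 16 probes, with DSS (circles) and in naive colon (squares), with 1 array per group and no error bar for lack of replicates; dashed lines mark 2-fold. Ptgs2 (1.40) and the second Ptges probe (1.07) pass the right line with DSS, all naive ratios lie between -0.55 and 0.44, and Ptgs1, Ptger1 and Ptger2 lie left of 0 in naive colon and right of it with DSS.

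The neighbouring branches of the pathway were examined in a list of 20 genes for arachidonic acid release and for other prostanoids, of which 18 were measured (Ptgdr and Ptgdr2 were not well above background on any array). In X-KO DSS over X-KO naive 4 were at least 2-fold higher and 1 at least 2-fold lower, beside 5.26% and 5.25% of all probes. In WT 1 was higher and 0 lower, beside 3.12% and 5.49%, and the list medians were -0.25 and 0.01. Thromboxane synthase Tbxas1 was 2.88-fold higher with DSS in X-KO and 1.53-fold higher in WT. The prostacyclin receptor Ptgir was 2.16-fold and 1.43-fold higher, and the prostaglandin F receptor Ptgfr, whose signal was not well above background in X-KO naive, was at least 2.57-fold higher in X-KO and 1.32-fold higher in WT. Akr1c18, which encodes a hydroxysteroid dehydrogenase, was 2.09-fold and 2.25-fold higher.

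Of the genes named from this list, 4 were lower in X-KO DSS than in X-KO naive. Slco2a1, the transporter that brings prostaglandin E2 into cells for inactivation by the Hpgd product, had a relative signal of 2.92 in X-KO DSS against 5.18 in X-KO naive, and of 4.25 in WT DSS against 5.14 in WT naive, a direction shared with Hpgd in both genotypes. The carbonyl reductase genes Cbr1, whose protein can reduce prostaglandin E2, and Cbr3 had log2 ratios of DSS over naive of -0.77 and -1.17 in X-KO, and of 0.00 and -0.09 in WT. Cbr3 was 2.26-fold lower in X-KO DSS than in WT DSS. Hpgds, the synthase of prostaglandin D2 in blood cells, had ratios of -0.52 and -0.67.

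A second list held 17 cytokines, receptors and transcription factors known to act on Ptgs2 or Ptges, and all 17 were measured. At 2-fold, 7 were higher with DSS in X-KO and 5 in WT, and 0 were lower in either, beside 5.26% and 3.12% of all probes higher and 5.25% and 5.49% lower, with list medians of 0.76 and 0.51 (dim sides of a ratio at their bound). The cytokine genes led: Il1b was 57.8-fold higher in X-KO and 41.0-fold in WT, Tnf 11.1-fold and 6.72-fold, and Il6, dim (not well above background) in both naive pools, at least 62.3-fold and 20.5-fold. Il1r1, the receptor for interleukin-1, was 2.23-fold higher in X-KO and 1.17-fold in WT, and the transcription factor gene Cebpb 2.26-fold and 1.42-fold. The immediate early genes differed in order: Egr1, known to act on the Ptges promoter, was 1.60-fold higher with DSS in X-KO and 3.24-fold in WT, and Fosl1 1.11-fold and 2.20-fold. In X-KO DSS against WT DSS, Il1b was 2.90-fold, Il6 2.84-fold, Il1a 3.28-fold and Il1r1 1.92-fold higher, beside 2.63-fold for Ptgs2. Tnf was 1.49-fold and Cebpb 1.54-fold higher, while Egr1 was 1.68-fold, Fosl1 1.73-fold and Fos 1.85-fold lower. In that comparison 5 of the 17 genes were below 0, and the list median was 0.28.

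Promoter sequence is shown for 3 genes: Ptgs2, with higher signals after DSS, Hpgd, with lower signals, and Ptges, whose probes disagreed. The dim Ptges probe was higher with DSS (log2 ratio 1.73 in X-KO and 0.73 in WT), and the bright probe changed little (0.06 and 0.23). The windows run from 250 bases before to 50 after the annotated start, from RefSeq with GRCm38.p6 coordinates, and were found for 9 of the 10 members. Matches to 6 motifs, searched on both strands, are in capitals. The motifs were the TATA box with the letters TATAAA, the core of the cyclic AMP response element with TGACG, the E-box with CACGTG, the site of C/EBP proteins with TTNNGNAA, the site of AP-1 with TGANTCA, and the NF-kappaB motif.
Ptgs2, chr1:150099781-150100080, plus strand: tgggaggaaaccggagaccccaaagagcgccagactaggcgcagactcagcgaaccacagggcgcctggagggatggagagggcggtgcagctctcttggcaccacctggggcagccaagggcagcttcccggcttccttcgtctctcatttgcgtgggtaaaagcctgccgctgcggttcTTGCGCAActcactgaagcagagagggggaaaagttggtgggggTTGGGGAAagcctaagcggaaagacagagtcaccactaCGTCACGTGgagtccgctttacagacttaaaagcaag
Ptges, chr2:30903248-30903547, minus strand: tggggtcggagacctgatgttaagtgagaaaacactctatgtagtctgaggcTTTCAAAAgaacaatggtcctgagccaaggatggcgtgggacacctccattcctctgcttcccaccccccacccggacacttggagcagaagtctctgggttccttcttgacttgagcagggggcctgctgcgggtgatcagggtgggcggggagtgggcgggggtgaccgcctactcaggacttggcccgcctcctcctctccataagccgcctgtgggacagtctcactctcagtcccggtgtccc
Hpgd, chr8:56294302-56294601, plus strand: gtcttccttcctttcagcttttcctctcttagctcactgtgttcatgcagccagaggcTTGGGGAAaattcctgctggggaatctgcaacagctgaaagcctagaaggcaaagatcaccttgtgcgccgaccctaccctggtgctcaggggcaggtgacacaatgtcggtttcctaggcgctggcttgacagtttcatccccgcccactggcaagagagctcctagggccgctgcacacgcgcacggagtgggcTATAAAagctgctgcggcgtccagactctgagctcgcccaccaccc
The Ptgs2 window held 2 C/EBP matches, 1 of them a palindrome found on both strands, and a cyclic AMP element core that overlaps an E-box by 2 bases. The windows of Ptges and Hpgd held 1 C/EBP match each, and that of Hpgd also held the letters TATAAA, which begin 4 bases after the annotated start. Of all 32851 windows, 40.7% held the C/EBP motif, 20.8% the cyclic AMP element core, 7.15% the E-box, 13.6% the TATAAA letters, 7.81% AP-1 and 4.51% NF-kappaB. Among the 9 member windows the C/EBP motif was in 5, that core in 2, the E-box in 2, TATAAA in 1, and AP-1 and NF-kappaB in 0. A match describes these letters only.

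Markers of other cell types also differed between the arrays, and not all in 1 direction. With DSS, the 6 neutrophil markers summed to a relative signal of 67.2 in X-KO, 31.9 in WT, 42.2 in X-KO naive and 34.9 in WT naive. These sums rest largely on Csf3r, with 29.0, 19.9, 39.2 and 32.2 in the same order of arrays. Of the 6, 4 were at least 2-fold higher with DSS in each genotype (median log2 ratio 2.62 in X-KO and 1.14 in WT), S100a9 by 88.4-fold in X-KO and 72.8-fold in WT. Between the DSS pools 4 of 6 (S100a8, S100a9, Cxcr2 and Mmp9) were at least 2-fold higher in X-KO DSS than in WT DSS, with Cxcr2 and Mmp9 dim in both naive pools and S100a8 in WT naive. The 6 macrophage markers summed to 35.4, 27.2, 23.0 and 22.4 in the same order of arrays. Of these, 5 were at least 2-fold higher with DSS in X-KO and 2 in WT (median log2 ratio 1.51 and 0.42). Between the DSS pools 2 of 6 (Adgre1 and Mrc1) were at least 2-fold higher in X-KO DSS than in WT DSS. Itgam was the largest part of the sums (12.3, 12.8, 14.0 and 12.9) and went the other way. Its log2 ratios were -0.19 and -0.01 with DSS in X-KO and WT, and -0.06 for X-KO DSS over WT DSS. The 6 fibroblast markers summed to 140.3, 80.3, 61.3 and 76.3. Of these, 5 were at least 2-fold higher with DSS in X-KO and 0 in WT (median log2 ratio 1.15 and -0.02). In X-KO DSS against WT DSS Col1a1 was past 2-fold and all 6 were above 0. Mast cell markers, 3 of 6 of them dim in X-KO naive and 4 in WT naive, had 4 of 6 past 2-fold in that comparison and sums of 2.06, 1.52, 2.60 and 2.50, which rest largely on Kit (1.43, 1.31, 2.43 and 2.34). With DSS, 3 of the 6 were at least 2-fold higher in X-KO and 2 in WT (median log2 ratio 1.59 in X-KO and, over the 5 with a ratio, 0.51 in WT, dim sides at their bound). The part of these cells in the values of Ptgs2, Ptges, Ptger1 and Ptger2 was not tested.

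Epithelial markers, beside which Hpgd and Slco2a1 are read, summed to 470 in X-KO DSS, 598 in WT DSS, 656 in X-KO naive and 549 in WT naive. Of the 10, 9 were below 0 in X-KO DSS over X-KO naive (median log2 ratio -0.37) and 3 of 10 in WT DSS over WT naive (median 0.20). Slc26a3, an anion exchanger of surface cells, and Muc2, the goblet cell mucin, were lower with DSS in both genotypes, as Hpgd was: Slc26a3 by 4.04-fold in X-KO and 2.30-fold in WT, and Muc2 by 1.81-fold and 1.93-fold. In WT DSS over WT naive 7 of the 10 epithelial markers were above 0, while Hpgd was lower. The part of any change in epithelial cells in the Hpgd signal was not tested. Tuft cell markers, of a cell known to express Ptgs1, had median log2 ratios of DSS over naive of -0.72 in X-KO (over 4 genes) and -0.24 in WT (over 5). Dclk1 went the other way, 2.17-fold higher in X-KO DSS than in X-KO naive and 2.21-fold higher in X-KO DSS than in WT DSS, and Il25 was not well above background on any array. The medians of X-KO DSS over X-KO naive and of WT DSS over WT naive were 0.85 and -0.25 for 5 endothelial markers, -0.76 and -0.20 for 5 smooth muscle markers, and 1.74 and 2.31 for 4 adipocyte markers. Of 7 pancreatic acinar markers, 5 were dim in both naive pools, and 6 were at least 2-fold higher with DSS in each genotype. Ctrb1, measured on all 4 arrays, was 7.08-fold higher in X-KO and 32.8-fold in WT. Cela1, also measured on all 4 arrays, went the other way, with log2 ratios of DSS over naive of -1.53 in X-KO and -0.26 in WT. Its relative signal was 6.54 in X-KO naive and 7.42 in WT naive. All 7 markers, Cela1 included, were at least 2-fold lower in X-KO DSS than in WT DSS (median log2 ratio -2.53). The DSS pools thus differed in the RNA of these genes they held, and the part of this in the ratios of the members was not tested. Whether the Cela1 signal came from pancreatic cells was not tested either.

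The genes closest to 3 members in profile were found among 14676 other named genes well above background on all 4 arrays, by the root mean square distance of 4 centred log2 values. For Ptgs2 they included Pira2, Nlrc5, H19 and H2-Q5, at distances of 0.07 to 0.13. For the bright Ptges probe they were Nudt7, Net1, Gm5963, Rpl27a and Gm8675, at 0.01 each. For the first Hpgd probe they were Slc5a1, Dqx1, Hdac11, Npb and Tmem25, at 0.01 to 0.03. Likeness over 4 arrays is a description only.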

How the data were processed

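Colon RNA of 4 mouse groups was measured on Agilent single-colour (Cy3) arrays, labelled from 200 ng of total RNA per the labels' protocols. The deposited scanner files hold, for each spot, a background-subtracted and detrended intensity and flags, made with Agilent Feature Extraction 11.5.1.1, per the submitters' processing notes and the file headers. The deposited series table holds a linear ratio, the processed signal over the array's 75th percentile, which the values themselves show.

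Control spots and outlier spots (129 to 136 per array) were left out, and 0 spots were saturated. The log2 of the signal over the array's own 75th percentile was taken, spots of a probe were averaged, and the 28719 probes well above background on at least 1 array and with a value on all 4 were kept. Where a probe was not well above background on the dimmer array, the higher of its own signal and the lowest measured signal of that array was used ("at least"). The shares of probes with a higher or lower ratio than a member, and the medians of all probes, used the signals without this bound. A pair of arrays was counted at 2-fold with no test. The additive fit used limma 3.58.1 in R 4.3.3 (adjusted p under 0.05). It was run on simulated data whose DSS effects were alike in both genotypes. That run cannot show how the fit behaves where the genotypes respond differently. List genes were read by their brightest probe.

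The members and lists were chosen with earlier results of these data known. Named were all members with every probe, up to 8 genes each of 2 pathway lists by largest ratio, marker lists by their values, the 5 nearest profiles of 3 members (1 of those of Ptgs2 is not reported here), and Pla2g10. The other fits and scalings tried are given below with their effects. With 4 arrays, precision is limited by their number.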

Additional observations from a re-analysis of the deposited data

Results flagged for a closer look

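Some ratios had opposite signs in the 2 genotypes or in the 2 conditions, each by more than the repeat-spot noise of 0.0847. With 1 array per group the differences were not tested. Ptges2 was lower with DSS in X-KO and higher in WT, a difference of -0.39 in the log2 ratio. X-KO stood above WT with DSS and below it in naive colon for Ptgs1 (difference 0.43), for Ptger1 (1.04), for Ptger2 (0.78) and for 2 of the 4 Ptges3 probes (0.22 for A_55_P2079485 and 0.32 for A_55_P2018542). These 2 Ptges3 probes are the ones with predicted transcripts also listed. With median scaling their log2 ratios of X-KO DSS over WT DSS were 0.02 and 0.06, within the spot noise. That of Ptges2 in X-KO DSS over X-KO naive was then -0.07, also within it.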

How the results depend on the processing

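The ratios of the 16 probes were recomputed with median scaling, quantile normalization, normexp background correction with quantile normalization, the deposited series table, and with outlier spots kept. Ptgs2 stayed on its side of 2-fold and kept its direction in all 4 comparisons under these 5 settings. Its log2 ratio of X-KO DSS over X-KO naive was 2.50 with normexp, and that of WT DSS over WT naive was 1.83 with median scaling, 1.78 with quantile normalization and 1.51 with normexp. For X-KO over WT it was 1.30 with DSS under median scaling and 0.34 in naive colon under normexp. The dim Ptges probe, at 1.07 for X-KO DSS over WT DSS, fell short of 2-fold under 3 settings (lowest 0.78), which left 1 member probe past it with median scaling, 1 with quantile normalization and 1 with normexp, in place of 2. Ptger2 in X-KO DSS over X-KO naive ranged from 0.81 to 1.03 and passed 2-fold in 1 setting. The bright Ptges probe (-0.10 to 0.17), 2 Ptges3 probes (-0.13 to 0.10 and -0.17 to 0.04) and the brighter Ptger3 probe (-0.01 to 0.12) had no stable direction for X-KO DSS over WT DSS, nor had the brighter Ptger3 probe (-0.07 to 0.01) and a Ptges3 probe (-0.01 to 0.06) for X-KO DSS over X-KO naive. Median scaling moved the median of all probes in WT DSS over WT naive to 0.11, against -0.03. The limma count for DSS, 0 of all probes with 5521 at an unadjusted p below 0.05, was 1360 when only probes measured on every array were fitted and 1673 with trend and robust; the count for genotype was 0 in every fit, with 1080 at an unadjusted p below 0.05. No paired analysis was possible because the labels carry no replicate numbers and each group is 1 array.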
